A study of Rattus norvegicus with 59 samples.

Results

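The transcripts described here encode cell adhesion and axon guidance molecules that are best known from neurons, measured in INS-1E cells, a clonal line from a rat insulinoma whose insulin release responds to glucose. They were chosen by gene symbol as the contactins and contactin-associated proteins, the Ncam and L1 family, neurexins and neuroligins, cadherins, protocadherins, semaphorins of classes 3 to 7, plexins, Eph receptors, ephrins, Slits, Robos and Unc5 receptors. This gave 146 transcripts under 144 symbols of the 18331 transcripts in the series, as Epha5 and Robo4 each had a second entry. Unc50 and Unc5cl were matched by their names only and are not Unc5 guidance receptors.

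Cells were kept for 72 h at 11.1 mM glucose (NG, 20 libraries) or at 20 mM glucose (HG, 20 libraries). The last group (HG + drugs, 19 libraries) had the 72 h of 20 mM glucose and, over the last 48 h, a mixture of metformin at 250 μM, sodium salicylate at 250 μM and exendin-4 at 50 nM. HG was used to impair the cells, and the drug mixture to restore them, so the effect of any single drug cannot be told apart from that of the others. The study describes the replicates as independent experiments. Values are FPKM, fragments scaled by transcript length and library total, so levels of different genes can be compared per length. The libraries held 6.92 to 10.2 M reads, as the steps between low FPKM values show, with medians of 8.56 M in NG, 8.69 M in HG and 8.85 M with HG + drugs.

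Adhesion molecules of these families bind partners on the next cell and anchor to the cytoskeleton through catenins, ankyrins or scaffold proteins. Guidance cues (ephrins, semaphorins, Slits and netrins) bind receptors (Eph receptors, plexins, Robos and Unc5 receptors) that steer growth cones and migrating cells. Several have known roles in islets. E-cadherin and Ncam1 help to arrange endocrine cells, Robo receptors keep the architecture of mouse islets, and EphA receptors and ephrin-A5 on neighbouring beta-cells tune insulin secretion in mouse islets.

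Promoter sequences are shown for 4 genes on which the results turn. Efna1 had the highest rise with HG and Cntn3 the deepest fall, Robo2 fell with the smallest adjusted p, and Efna5 is an ephrin of the same class as Efna1 that moved the other way. Each covers 250 bases before to 50 bases after the RefSeq start in build GRCr8, 5′ to 3′ on the strand of the gene. All 4 genes lie on the minus strand, Efna1 at chr2:176986772-176987071, Efna5 at chr9:110042138-110042437, Cntn3 at chr4:136681862-136682161 and Robo2 at chr11:26526363-26526662. Capitals mark GC boxes (GGGCGG, or CCGCCC on the other strand) and the E-box CACGTG.
Efna1: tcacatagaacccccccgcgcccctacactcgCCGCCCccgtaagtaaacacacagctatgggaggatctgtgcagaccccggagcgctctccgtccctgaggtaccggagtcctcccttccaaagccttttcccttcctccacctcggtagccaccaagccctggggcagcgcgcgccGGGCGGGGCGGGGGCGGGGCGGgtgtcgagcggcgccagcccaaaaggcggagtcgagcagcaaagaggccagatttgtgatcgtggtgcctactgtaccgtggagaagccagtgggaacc
Efna5: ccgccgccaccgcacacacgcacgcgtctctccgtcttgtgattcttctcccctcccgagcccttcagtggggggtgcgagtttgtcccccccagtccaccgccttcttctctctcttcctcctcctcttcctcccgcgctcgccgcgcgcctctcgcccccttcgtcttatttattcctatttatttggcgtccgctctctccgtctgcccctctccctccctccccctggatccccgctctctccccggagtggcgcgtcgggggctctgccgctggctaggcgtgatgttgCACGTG
Cntn3: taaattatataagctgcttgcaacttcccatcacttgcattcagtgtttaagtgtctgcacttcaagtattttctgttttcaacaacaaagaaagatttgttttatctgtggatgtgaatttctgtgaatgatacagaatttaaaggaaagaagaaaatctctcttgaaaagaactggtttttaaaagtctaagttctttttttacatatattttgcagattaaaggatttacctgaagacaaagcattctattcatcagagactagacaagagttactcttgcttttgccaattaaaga
Robo2: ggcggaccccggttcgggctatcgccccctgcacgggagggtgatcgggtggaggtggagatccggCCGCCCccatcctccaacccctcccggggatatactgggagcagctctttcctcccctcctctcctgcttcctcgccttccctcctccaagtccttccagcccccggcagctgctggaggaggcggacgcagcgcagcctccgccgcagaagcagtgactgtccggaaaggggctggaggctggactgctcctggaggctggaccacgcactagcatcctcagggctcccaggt
The Efna1 window had a GC content of 66.0% and 5 GC boxes, 4 of them in a single run of overlapping or adjoining copies. Efna5 held an E-box at its 3′ end and no GC box, with a GC content of 65.7%. The Robo2 window (68.3% GC) held 1 GC box, and the Cntn3 window, at 30.7% GC, held none of the motifs searched. Among the 73 members that passed the filter on low values, 50 matched a RefSeq promoter, and their median GC content was 59.4% compared to 51.7% over 33469 rat promoters. GC boxes were present in 24 of the 50 (48.0%) and in 33.1% of all promoters, which were not limited to expressed genes. They were in 9 of 13 promoters of members lowered with HG, Unc50 among the 9, and in 5 of 16 of those raised. The E-box was in 6.0% of the members and 6.42% of all promoters, the cyclic AMP response element TGACGTCA in 2.0% and 1.83%, the TATA box TATAAA in 10.0% and 14.2%, and the RE1 sequence TTCAGCACC in 0 of 50 and 0.356%. Both strands were searched, and a match is only a run of letters.

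INS-1E cells expressed at least 1 measured member of each of the 11 families. Of the 146 transcripts, 73 averaged 1 FPKM or more across the libraries and were tested, 13 of them at 20 FPKM or more and 37 under 5 FPKM. Plxnb2, a receptor for class 4 semaphorins, was the most abundant at 74.7 ± 4.99 FPKM (SD, n = 20) in NG. It was followed by Cdh1 (E-cadherin), Unc50, Efnb1, Ncam1, Cdh22, Sema4d, Pcdhgb8, Robo2, Unc5a and Nlgn2, each with a mean in NG of 28.9 to 46.8 FPKM. The tested members were long transcripts at low levels, with a median length of 4009 bases and a median level of 4.72 FPKM compared to 2094 bases and 14.4 FPKM over all 10660 transcripts tested.

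**Figure D1:**
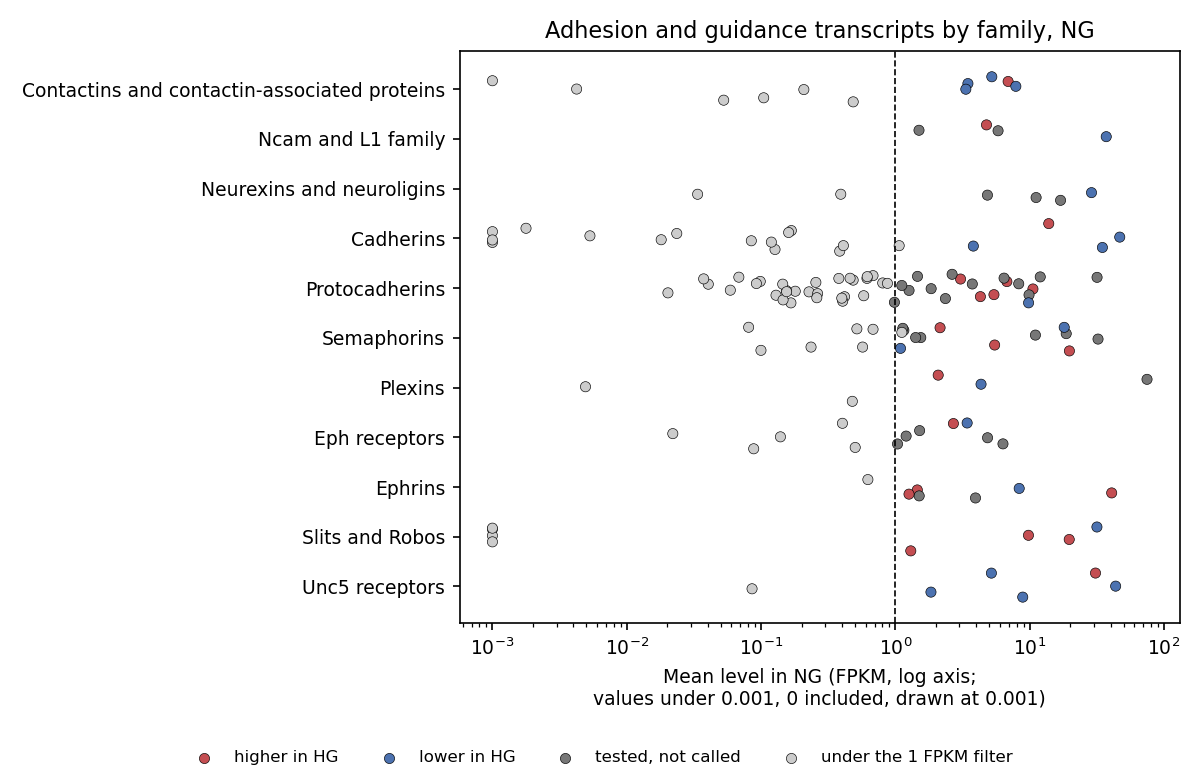
Mean level of each of the 146 transcripts in NG (FPKM, log axis) by family, each point a transcript. The dashed line marks 1 FPKM, points at the left edge had means under 0.001 FPKM, and colours give the result of HG compared to NG, with red and blue mixed in most families.

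Most markers of the labelled cell type, the beta-cell, were high. Ins1 was at 69154 FPKM in NG, Ins2 at 15857 and Iapp at 8349, with Slc30a8, Slc2a2, Neurod1, Pdx1 and Nkx2-2 between 38.7 and 838 FPKM. Pcsk1 (14.8 FPKM) and Nkx6-1 (10.3 FPKM) were near or below the median of all tested transcripts in NG, 14.4 FPKM. Of the 12 beta-cell markers listed, 10 were measured. With HG 8 of these 10 fell and none rose, and 4 rose with drugs. Of all transcripts, 22.0% fell with HG and 4.17% rose with drugs. Neuron markers were present as well, with 9 of 11 measured, led by Tubb3 (62.9 FPKM in NG), Nefh (31.6), Gad1 (26.5) and Nefl (17.8). With HG, 3 of these neuron markers rose and 4 fell, where 18.2% and 22.0% of all transcripts did. Their summed level was 158 to 180 FPKM in NG, 161 to 204 in HG and 146 to 193 with HG + drugs. The defining glial transcripts Gfap, Sox10 and Mog, the endothelial Pecam1, Tie1, Cldn5 and Emcn, the fibroblast Dcn and Lum and the blood cell Ptprc were at or near 0 in all groups, while Mbp (50.3 FPKM), Thy1 (109 FPKM) and the alpha-cell hormone Gcg (947 FPKM, 378 to 1706 between libraries) were not. In bulk RNA, fewer cells of a type and less RNA per cell cannot be told apart.

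With HG, 20 of the 73 tested members were higher than in NG and 20 were lower, at a threshold of 0.05 for the limma p adjusted over all transcripts (Benjamini-Hochberg). Thus 54.8% of the members were changed, where 40.1% of all 10660 transcripts were (18.2% raised and 22.0% lowered). The median log2 fold change was -0.01 for the members and -0.02 for all transcripts, and the median size regardless of sign was 0.12 and 0.09. All fold changes are on the log2(FPKM + 1) scale, which understates those of low transcripts. Most changes were modest, as 8 of the 40 exceeded 0.5 and 21 were under 0.25 in size. In 3 members (Robo2, Unc5c and L1cam) every HG library lay beyond every NG library, which 1.80% of all transcripts showed.

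When drugs were added to HG, 10 members rose and 6 fell compared to HG, which is 21.9% of the 73, where 8.66% of all transcripts were changed (4.17% raised and 4.48% lowered). None of these changes exceeded 0.5, and no member or other transcript separated the libraries of these groups completely (0.00% of all). Compared to NG, HG + drugs had 13 members higher and 14 lower (37.0%, where 27.3% of all transcripts were changed, 12.7% raised and 14.6% lowered). The 3 comparisons share libraries, so their values are set side by side for each member without a test between them. The fit did not pair libraries by replicate number. With that number as a block, more members and more of all transcripts passed with drugs, Efna1, Efnb1 and Unc5a among the members. The authors pooled the libraries for sequencing in 4 batches of 15, but the members of each batch are not given in the sources used here. The column names number the libraries, and all members called in a comparison had the same direction in each of the 4 sets of 15 consecutive numbers. The members were called over these same libraries, so this is no separate test. It says nothing on the batches, as the sets are not known to match them.

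The number 13 libraries of HG and of HG + drugs went against the rest. In 13 of the 16 members changed with drugs, the number 13 libraries differed in the direction opposite to the fit, compared to a median of 1 of 16 over the 19 numbers and at most 4 in any other. With HG they differed against the fit in 9 of 40 changed members, compared to at most 5 in any other number, and between HG + drugs and NG in 2 of 27. Whether these HG and HG + drugs libraries carry each other's label cannot be told from the labels and was not tested. Without these libraries, 40 members were changed with HG, 18 with drugs and 27 between HG + drugs and NG. The drug calls gained were Efna1 and Efnb1, and no call was lost with drugs. These libraries were left out for going against the fit, so the gains are no separate support for a change.

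**Figure D2:**
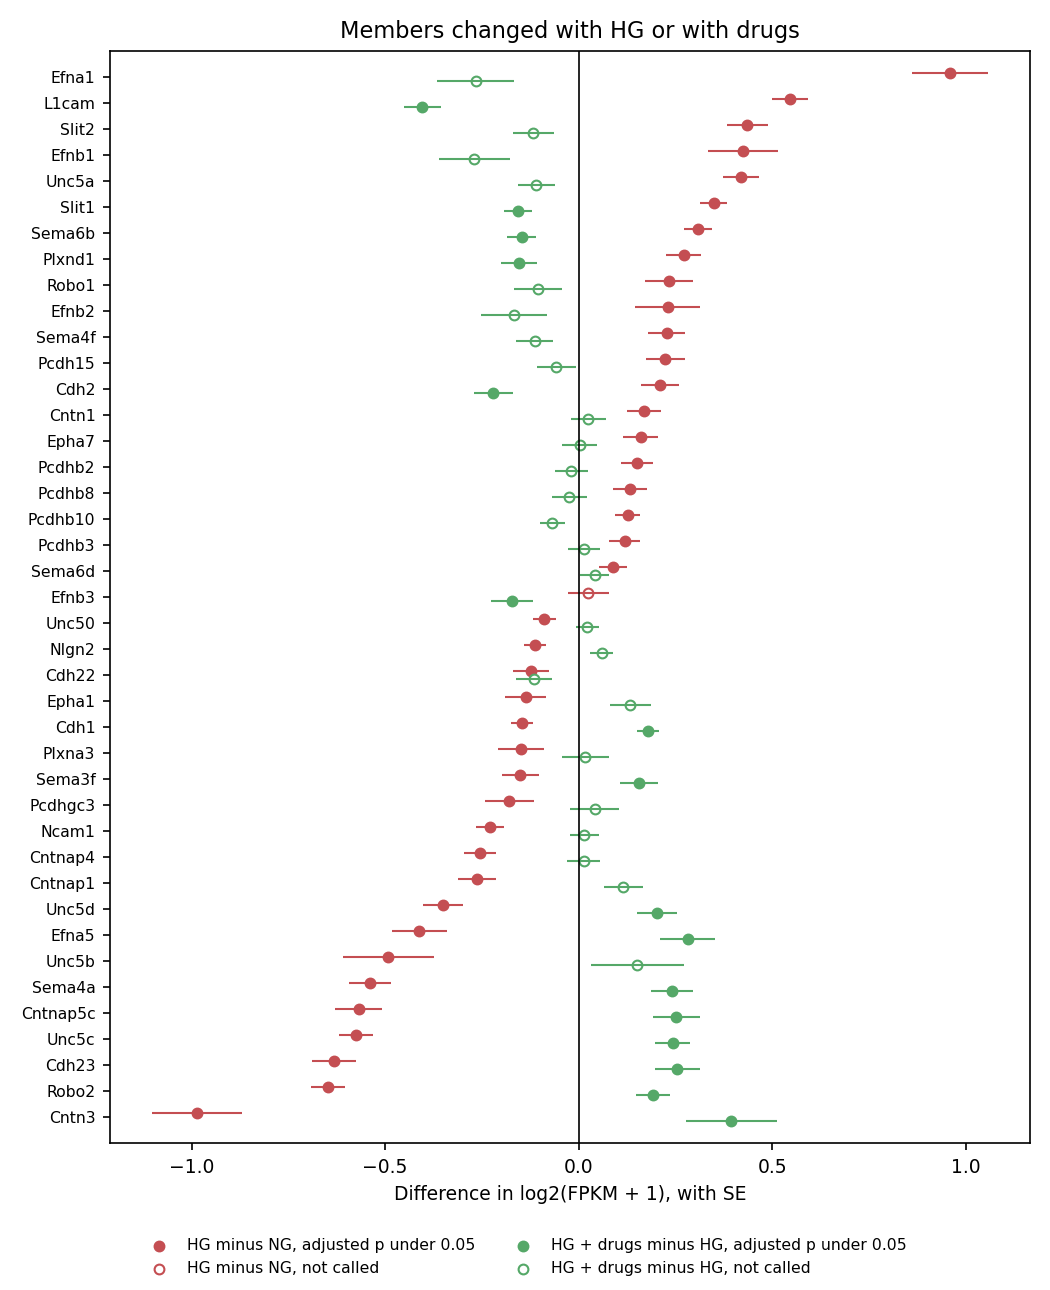
Difference in log2(FPKM + 1) with its SE for the members changed with HG (red) or with drugs (green), ordered by the HG value. Filled points passed an adjusted p under 0.05 in limma. Cntn3 (-0.99 with HG) stands at the bottom and Efna1 (0.96) at the top.

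Contactins are immunoglobulin adhesion molecules tied to the membrane by a lipid anchor, and the Cntnap proteins are their neurexin-like partners. All 5 measured members of the 11 changed with HG, where 40.1% of all transcripts did. Cntn1 was higher and Cntn3, Cntnap5c, Cntnap4 and Cntnap1 were lower. Cntn3 (RefSeq transcript NM_019329), which promotes neurite outgrowth, ranged from 5.09 to 11.4 FPKM in NG (median 7.97), from 1.83 to 6.10 in HG (median 3.50) and from 2.23 to 10.3 in HG + drugs (median 4.13). The HG libraries lay below all but the lowest NG libraries, while HG + drugs spread over the range of both. Its mean fell from 7.88 ± 1.71 to 3.52 ± 1.04 FPKM with HG, a log2 fold change of -0.99 (SE 0.12, limma adjusted p = 2.1e-10). With drugs it was 5.13 ± 2.20 FPKM, 0.39 above HG (SE 0.12, limma adjusted p = 0.024) and 0.59 below NG (limma adjusted p = 7.4e-05).

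Cntnap5c, a neurexin-like transmembrane protein, had 3.82 to 6.86 FPKM in NG (median 5.26), 2.28 to 4.30 in HG (median 3.10) and 2.70 to 6.01 in HG + drugs (median 3.94). NG and HG overlapped only at their edges. The log2 fold change was -0.57 with HG (SE 0.06, limma adjusted p = 6.8e-12) and 0.25 with drugs (SE 0.06, limma adjusted p = 0.0041). Cntnap4 went from 3.47 ± 0.416 to 2.74 ± 0.310 FPKM with HG and stayed at 2.78 ± 0.357 in HG + drugs. Cntnap1, a partner of Cntn1, went from 3.35 ± 0.568 to 2.61 ± 0.359 and then 2.91 ± 0.369 FPKM. The drug contrasts of Cntnap4 and Cntnap1 did not pass the test (limma adjusted p = 0.92 and 0.15), though Cntnap1 did with replicate number as a block. Cntn1 had the highest mean of the family over all libraries, at 6.91 ± 0.592, 7.92 ± 1.05 and 8.06 ± 0.910 FPKM in NG, HG and HG + drugs. It rose with HG (0.17, SE 0.04, limma adjusted p = 0.0016) and was 0.02 (SE 0.05) higher with drugs than in HG (limma adjusted p = 0.82).

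In the Ncam and L1 family all 4 members were measured, of which 1 rose and 1 fell. L1cam (NM_017345), a homophilic adhesion molecule of growing axons, had 3.90 to 5.59 FPKM in NG (median 4.69), 5.75 to 9.14 in HG (median 7.57) and 4.25 to 7.95 in HG + drugs (median 5.22). No HG library was as low as any in NG, and the highest value in HG + drugs, 7.95, was that of the number 13 library. The log2 fold change was 0.55 with HG (SE 0.05, limma adjusted p = 4.9e-15) and -0.40 with drugs (SE 0.05, limma adjusted p = 1.9e-08), the deepest fall of any member with drugs. HG + drugs remained above NG by 0.14 (limma adjusted p = 0.022).

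Ncam1, the carrier of polysialic acid, was more abundant than L1cam and moved the other way. It was at 37.1 ± 3.20 FPKM in NG, 31.6 ± 2.97 in HG and 31.8 ± 1.98 with HG + drugs, with log2 fold changes of -0.23 with HG (SE 0.04, limma adjusted p = 5.9e-07) and 0.01 with drugs (limma adjusted p = 0.89). Nrcam and Ncam2 were at 5.81 ± 0.826 and 1.50 ± 0.284 FPKM in NG and were not called in any comparison of the main fit. Of the neurexins and neuroligins, which pair across synapses, 4 of 6 were measured and Nlgn2, known from inhibitory synapses, fell with HG from 28.9 ± 1.91 to 26.6 ± 2.12 FPKM (-0.11, SE 0.03, limma adjusted p = 0.0012). Nrxn2 (17.0 FPKM in NG) and Nlgn3 (4.85 FPKM in NG) had differences of at most 0.08 in size with HG or with drugs and did not pass the test.

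Only 4 of the 19 cadherins passed the filter, and all changed with HG, where 40.1% of all transcripts did. Cdh1 (E-cadherin), which joins epithelial and endocrine cells, had 40.0 to 51.0 FPKM in NG (median 46.6), 38.5 to 48.8 in HG (median 42.0) and 43.0 to 53.7 in HG + drugs (median 47.5). Cdh2 (N-cadherin), which joins neurons and mesenchymal cells, had 11.0 to 16.4 FPKM in NG (median 14.0), 13.2 to 18.9 in HG (median 15.8) and 10.8 to 16.1 in HG + drugs (median 14.0). The groups overlapped in both genes, and the directions were opposite. With HG, Cdh1 changed by -0.15 (SE 0.03, limma adjusted p = 2.8e-05) and Cdh2 by 0.21 (SE 0.05, limma adjusted p = 4.0e-04). With drugs, Cdh1 changed by 0.18 (SE 0.03, limma adjusted p = 1.5e-05) and Cdh2 by -0.22 (SE 0.05, limma adjusted p = 0.0018). HG + drugs differed from NG by 0.03 in Cdh1 and -0.01 in Cdh2, which did not pass the test. Within each library, the ratio of Cdh1 to Cdh2 had a median of 3.38 in NG (2.63 to 4.34), 2.61 in HG (2.07 to 3.36) and 3.59 in HG + drugs (2.78 to 4.47). Members that change in opposite directions shift such a ratio by construction. The ratios here and below thus restate those changes and were not tested.

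Cdh23 is the cadherin that forms the tip link of inner ear hair cells together with Pcdh15. Its level was 2.59 to 4.66 FPKM in NG (median 3.79), 1.46 to 2.65 in HG (median 2.06) and 1.82 to 3.65 in HG + drugs (median 2.71), so NG and HG barely met. It fell by 0.63 with HG (SE 0.06, limma adjusted p = 1.7e-14) and rose by 0.25 with drugs (SE 0.06, limma adjusted p = 0.0019). Pcdh15 rose with HG from 3.06 ± 0.361 to 3.75 ± 0.556 FPKM (0.22, SE 0.05, limma adjusted p = 2.4e-04) and was 3.56 ± 0.561 in HG + drugs. The ratio of Cdh23 to Pcdh15 accordingly had a median of 1.20 in NG, 0.580 in HG and 0.743 with HG + drugs, and the NG range (0.888 to 1.96) lay above all HG values (0.378 to 0.812). Cdh22, a cadherin of brain, was at 34.8 ± 3.03 FPKM in NG, 31.9 ± 3.41 in HG and 29.4 ± 3.75 with HG + drugs, and differed between HG + drugs and NG (-0.24, SE 0.05, limma adjusted p = 5.9e-05).

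Protocadherins were the largest family, with 49 transcripts of which 19 were measured. Of the 146 transcripts, 39 belong to the alpha, beta and gamma clusters, whose products are known for self-recognition of neurites. Alpha and gamma transcripts share constant 3′ exons and beta genes are near copies of each other, so the values of single isoforms, which Cufflinks divides from shared reads, are uncertain. Pcdhgb8 was the most abundant at 31.7 ± 2.51 FPKM in NG, 32.6 ± 2.44 in HG and 33.0 ± 2.17 with HG + drugs. With HG 5 protocadherins rose (Pcdh15, Pcdhb2, Pcdhb3, Pcdhb8 and Pcdhb10) and Pcdhgc3 fell, and none of these changes exceeded 0.22 in size. The 4 beta members rose by 0.12 to 0.15, such as Pcdhb10 from 10.6 ± 0.706 to 11.6 ± 0.840 FPKM (0.13, SE 0.03, limma adjusted p = 0.0011). None of the 19 was called with drugs in limma (1 had an unadjusted p under 0.05), though Pcdhb10 was with replicate number as a block.

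**Figure D3:**
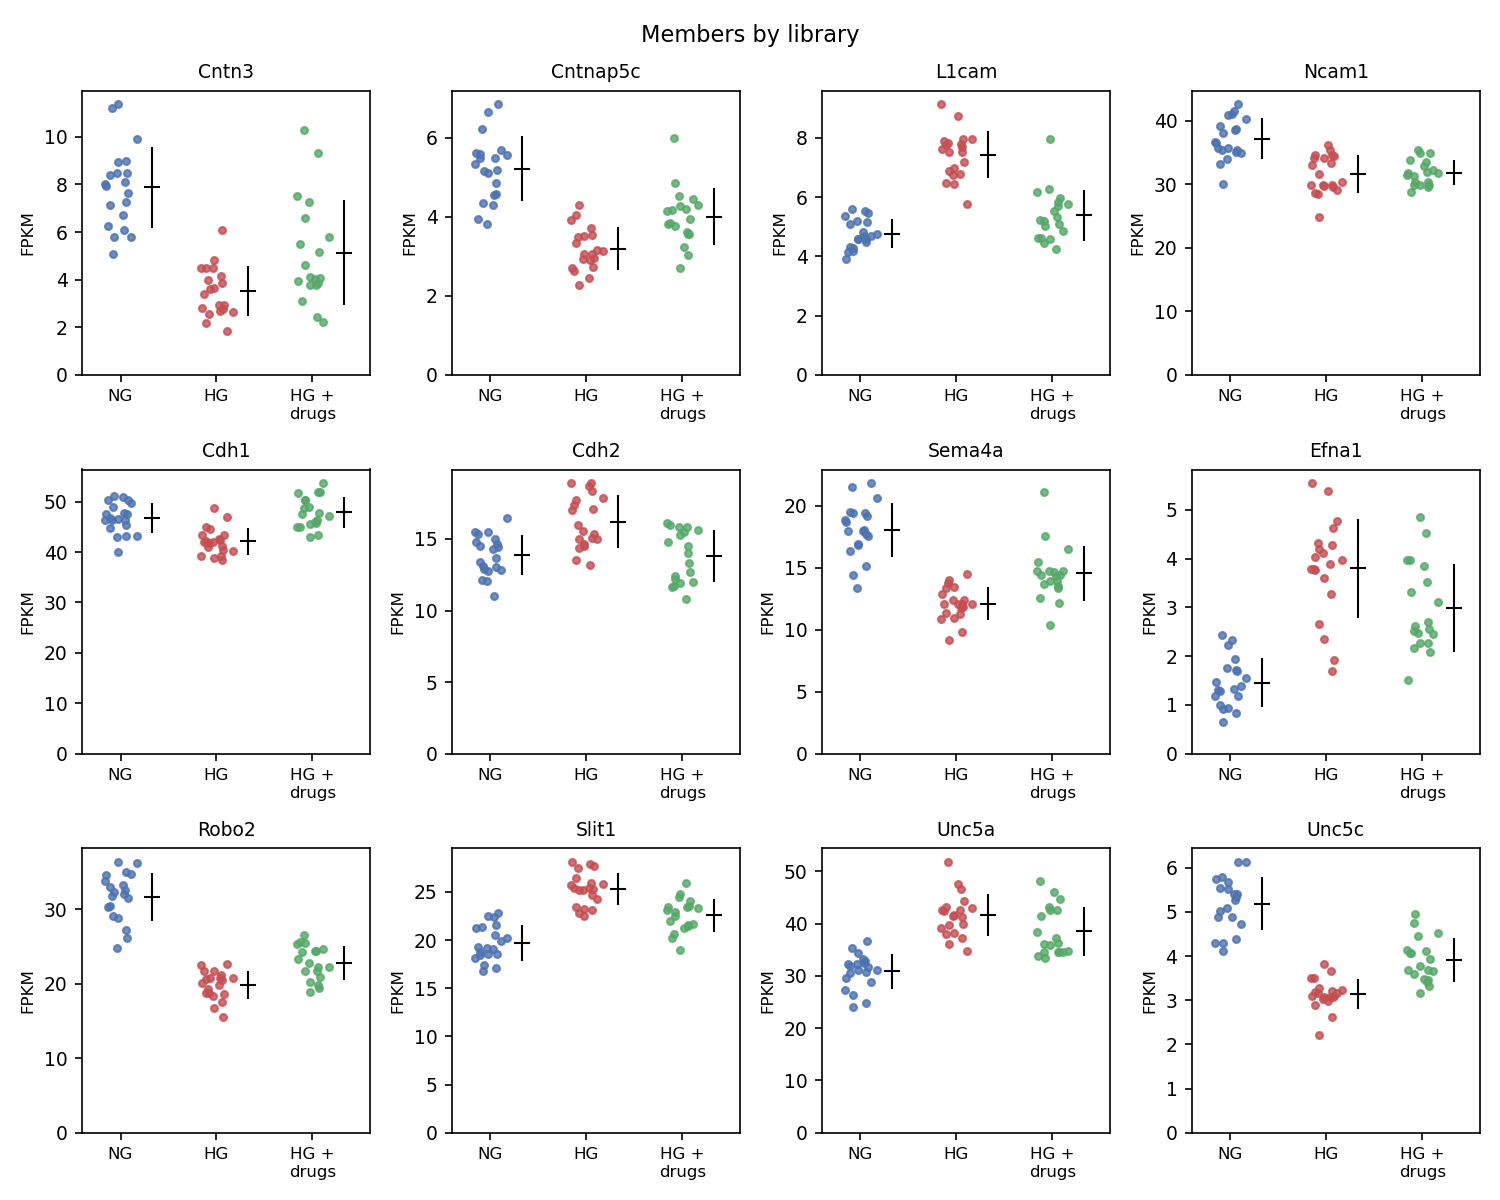
FPKM of 12 members in each library of NG, HG and HG + drugs, with each axis from 0. Points are libraries, and the black bars give mean and SD (n = 20, 20 and 19). Robo2, Unc5c and L1cam show no overlap of NG and HG, and Cntn3 spreads widely in HG + drugs.

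Semaphorins had 12 of 19 transcripts measured, of which 3 rose and 2 fell with HG. Sema4a, a membrane-bound cue that acts through plexins, had 13.4 to 21.8 FPKM in NG (median 18.0), 9.20 to 14.5 in HG (median 12.1) and 10.4 to 21.1 in HG + drugs (median 14.4). The NG and HG groups overlapped only between 13.4 and 14.5 FPKM, and the lowest value in HG + drugs was that of number 13. Sema4a fell by 0.54 with HG (SE 0.05, limma adjusted p = 7.5e-13) and rose by 0.24 with drugs (SE 0.05, limma adjusted p = 0.0019). Sema6b, a ligand of plexin-A receptors, moved in the opposite direction with 17.1 to 21.6 FPKM in NG (median 19.9), 21.3 to 27.4 in HG (median 24.8) and 17.4 to 25.8 in HG + drugs (median 22.5). It rose by 0.31 with HG (SE 0.04, limma adjusted p = 3.1e-10) and fell by 0.15 with drugs (SE 0.04, limma adjusted p = 0.0062).

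Sema3f, a secreted repellent that acts through Nrp2, was near the filter at 1.09 ± 0.217, 0.883 ± 0.178 and 1.10 ± 0.208 FPKM in NG, HG and HG + drugs. It fell by 0.15 with HG (limma adjusted p = 0.0091) and rose by 0.16 with drugs (limma adjusted p = 0.033), a call that was lost with quantile normalization (0.15, limma adjusted p = 0.061). Sema4f rose with HG from 5.48 ± 0.636 to 6.60 ± 0.873 FPKM (0.23, SE 0.05, limma adjusted p = 7.4e-05) and was 6.01 ± 0.631 with drugs, and Sema6d rose by 0.09 from 2.15 ± 0.252 FPKM. Sema4d, the most abundant semaphorin, was at 32.3 ± 2.19, 30.9 ± 2.23 and 30.9 ± 2.42 FPKM and did not pass the test with HG (-0.06, SE 0.03, limma adjusted p = 0.12). The remaining 6 measured semaphorins were not called in these comparisons.

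On the receptor side, 3 of 5 plexins were measured. Plxnb2 had means of 74.7 to 74.8 FPKM in the 3 groups, and its log2 fold changes of 0.00 (SE 0.03) with HG and with drugs did not pass the test. Plxnd1, the receptor of Sema3e, rose from 2.08 ± 0.260 to 2.73 ± 0.391 FPKM with HG (0.27, SE 0.05, limma adjusted p = 1.7e-06) and fell to 2.35 ± 0.309 with drugs (-0.15, SE 0.05, limma adjusted p = 0.024). Plxna3, which works with neuropilins, was 4.34 ± 0.566 in NG and 3.83 ± 0.562 in HG, at the edge of the threshold (-0.15, SE 0.06, limma adjusted p = 0.041), and the call was lost under 6 of the 10 alternatives in which it was tested. The coreceptor Nrp1 fell with HG from 2.61 ± 0.537 to 2.19 ± 0.542 FPKM (-0.19, SE 0.07, limma adjusted p = 0.021), while Nrp2 had means of 1.68, 1.44 and 1.49 FPKM in NG, HG and HG + drugs and was not called.

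Ephrins, the membrane-bound ligands of Eph receptors, included the highest riser. Of 6 measured, Efna1, Efnb1 and Efnb2 rose with HG and Efna5 fell. Efna1 (NM_053599) had 0.656 to 2.43 FPKM in NG (median 1.36), 1.71 to 5.55 in HG (median 3.93) and 1.52 to 4.84 in HG + drugs (median 2.63), where 1.46 FPKM, its mean in NG, was about 15.7 reads at the median depth. Most HG libraries lay above all NG libraries, and the highest value in HG + drugs was again that of number 13. It rose by 0.96 with HG (SE 0.10, limma adjusted p = 1.9e-12) and differed between HG + drugs and HG by -0.27 (SE 0.10), which did not pass the test (limma adjusted p = 0.083). Without the number 13 libraries the drug difference was -0.32 (limma adjusted p = 0.021). HG + drugs remained 0.69 above NG (SE 0.10, limma adjusted p = 1.2e-07).

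Efna5, also an ephrin with a lipid anchor, had 6.12 to 11.9 FPKM in NG (median 8.21), 3.19 to 8.15 in HG (median 6.15) and 5.70 to 9.98 in HG + drugs (median 7.35). The groups overlapped, with HG the lowest. Efna5 fell by 0.41 with HG (SE 0.07, limma adjusted p = 2.4e-06) and rose by 0.28 with drugs (SE 0.07, limma adjusted p = 0.0061). In each library, the ratio of Efna1 to Efna5 had a median of 0.153 in NG (0.0833 to 0.284), 0.634 in HG (0.258 to 1.24) and 0.346 in HG + drugs (0.188 to 0.695). Efnb1, a transmembrane ephrin and the most abundant of the family, was at 40.8 ± 7.16, 55.3 ± 10.8 and 46.0 ± 10.4 FPKM. Its rise with HG passed the test (0.42, SE 0.09, limma adjusted p = 1.2e-04), and its difference with drugs missed it (-0.27, SE 0.09, limma adjusted p = 0.053) but passed without number 13 (-0.31, limma adjusted p = 0.021). Efnb3 fell with drugs (-0.17, SE 0.05, limma adjusted p = 0.032) and was not called with HG (0.02, SE 0.05, limma adjusted p = 0.75), at 1.50 ± 0.275, 1.55 ± 0.340 and 1.26 ± 0.216 FPKM.

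Efnb2, the ligand of EphB4 in vessels, rose with HG from 1.26 ± 0.413 to 1.64 ± 0.403 FPKM (0.23, SE 0.08, limma adjusted p = 0.024). The Efnb2 means were only about 10.4 reads in NG and 13.5 in HG at the median depth. Its call was lost when only complete replicate numbers were kept. Efna2 stayed uncalled at 3.95 ± 0.784, 3.86 ± 0.854 and 3.79 ± 0.747 FPKM.

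The Eph receptors were low and moved little. The 7 measured of 12 ranged from Ephb2 (6.32 ± 0.890 FPKM in NG, 6.53 ± 0.879 in HG and 6.19 ± 0.844 with HG + drugs, not called) to Epha2 (1.04 ± 0.296 in NG). With HG, Epha7 rose by 0.16 (SE 0.04, limma adjusted p = 0.0028) and Epha1 fell by 0.14 (SE 0.05, limma adjusted p = 0.032). No Eph receptor was called with drugs (1 of 7 had an unadjusted p under 0.05 in limma), though Epha1 was with replicate number as a block. Epha5, the receptor paired with ephrin-A5 in mouse islets, had entries at 0.502 ± 0.219 and 0.404 ± 0.117 FPKM in NG, below the filter.

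Slits are secreted cues and Robos their receptors. All 4 measured of the 8 entries changed with HG, where 40.1% of all transcripts did. Slit1, Slit2 and Robo1 rose and Robo2 fell. Robo2 (NM_032106) had 24.7 to 36.3 FPKM in NG (median 32.2), 15.6 to 22.7 in HG (median 20.3) and 18.9 to 26.5 in HG + drugs (median 22.8). Every HG library lay below every NG library, and HG + drugs overlapped both. The fall with HG was 0.65 (SE 0.04, log2 fold change -0.65, limma adjusted p = 2.0e-19), the rise with drugs 0.19 (SE 0.04, limma adjusted p = 0.0024), and HG + drugs was 0.46 below NG (limma adjusted p = 1.4e-12). Robo1 was lower than Robo2 in each library, at 9.79 ± 1.32, 11.7 ± 1.41 and 10.9 ± 1.91 FPKM, and rose with HG by 0.23 (SE 0.06, limma adjusted p = 0.0015). The ratio of Robo1 to Robo2 had a median of 0.308 in NG (0.242 to 0.434), 0.583 in HG (0.489 to 0.746) and 0.460 in HG + drugs (0.363 to 0.678), with no overlap of NG and HG. This separation restates the opposite changes of Robo1 and Robo2.

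Slit1 had 16.8 to 22.8 FPKM in NG (median 19.2), 22.5 to 28.1 in HG (median 25.3) and 18.9 to 26.0 in HG + drugs (median 22.9), so NG and HG met only at 22.5 to 22.8. It rose by 0.35 with HG (SE 0.03, limma adjusted p = 8.5e-13) and fell by 0.16 with drugs (SE 0.04, limma adjusted p = 0.0018). Slit2 was less abundant, at 1.30 ± 0.202, 2.11 ± 0.262 and 1.89 ± 0.437 FPKM. It rose by 0.44 with HG (SE 0.05, limma adjusted p = 2.9e-10), and its drug difference of -0.12 (SE 0.05) did not pass the test (limma adjusted p = 0.17). The ratio of Slit1 to Slit2, which changed in the same direction, overlapped between groups. Its median was 14.86 in NG (11.14 to 21.58), 11.43 in HG (9.25 to 17.85) and 11.83 in HG + drugs (8.338 to 18.45).

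Unc5 receptors bind netrin-1 and mediate repulsion. Of the 4 Unc5 receptors measured, Unc5a rose with HG and Unc5b, Unc5c and Unc5d fell, where 40.1% of all transcripts changed. Unc5a had 24.1 to 36.8 FPKM in NG (median 31.5), 34.7 to 51.8 in HG (median 41.6) and 33.4 to 48.1 in HG + drugs (median 36.3). It rose by 0.42 with HG (SE 0.05, limma adjusted p = 3.9e-11), differed from HG by -0.11 with drugs (limma adjusted p = 0.15) and stayed 0.31 above NG (SE 0.05, limma adjusted p = 5.8e-07). Unc5c (NM_199407) had 4.12 to 6.13 FPKM in NG (median 5.31), 2.21 to 3.81 in HG (median 3.13) and 3.17 to 4.96 in HG + drugs (median 3.78). Every HG library was below every NG library, and HG + drugs overlapped both. Unc5c fell by 0.58 with HG (SE 0.04, limma adjusted p = 4.3e-17) and rose by 0.24 with drugs (SE 0.04, limma adjusted p = 1.3e-04).

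Unc5d followed the same order at 1.84 ± 0.294, 1.23 ± 0.284 and 1.56 ± 0.248 FPKM, with log2 fold changes of -0.35 with HG (SE 0.05, limma adjusted p = 7.4e-08) and 0.20 with drugs (SE 0.05, limma adjusted p = 0.0071). Unc5b varied widely between libraries, from 4.09 to 14.2 FPKM in NG (median 9.29), from 3.68 to 9.25 in HG (median 5.90) and from 3.80 to 12.8 in HG + drugs (median 6.49). It fell by 0.49 with HG (SE 0.12, limma adjusted p = 5.8e-04), and its drug difference of 0.15 (SE 0.12) did not pass the test (limma adjusted p = 0.50). The ratio of Unc5a to Unc5b had a median of 3.46 in NG, 7.11 in HG and 6.86 with HG + drugs. The ligand Ntn1 fell with HG from 9.58 ± 1.28 to 7.08 ± 0.900 FPKM (-0.39, SE 0.06, limma adjusted p = 6.1e-08) and was 7.43 ± 1.00 in HG + drugs, while Dcc, the attractive netrin receptor, was at 0.129 to 0.197 FPKM, below the filter. Unc50, which has a role in receptor trafficking, was at 43.6 ± 3.28, 40.9 ± 2.65 and 41.6 ± 2.39 FPKM. It is counted among the members lowered with HG (-0.09, SE 0.03, limma adjusted p = 0.013).

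Against NG, the members furthest from their starting level under HG + drugs were Efna1 (0.69), Cntn3 (-0.59), Robo2 (-0.46) and Cdh23 (-0.38, SE 0.06, limma adjusted p = 4.6e-07). Those next in size were Unc5b (-0.34, SE 0.12, limma adjusted p = 0.027), Unc5c (-0.33, SE 0.04, limma adjusted p = 2.4e-08), Slit2 (0.32, SE 0.05, limma adjusted p = 2.7e-06), Cntnap5c (-0.32, SE 0.06, limma adjusted p = 4.9e-05), Unc5a (0.31) and Sema4a (-0.30, SE 0.05, limma adjusted p = 1.7e-05). Efna5 (-0.13), Sema3f (0.00), Cdh1 (0.03) and Cdh2 (-0.01) did not pass the test in this comparison, which does not show that their levels were equal. Epha2 and Pcdha9 passed it here but not in the other comparisons, at 1.30 ± 0.297 FPKM with HG + drugs against 1.04 ± 0.296 in NG for Epha2 (0.18, SE 0.07, limma adjusted p = 0.049) and 2.30 ± 0.280 against 2.64 ± 0.407 for Pcdha9 (-0.14, SE 0.05, limma adjusted p = 0.020). The call of Epha2 was lost under 4 of 10 alternatives.

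**Figure D4:**
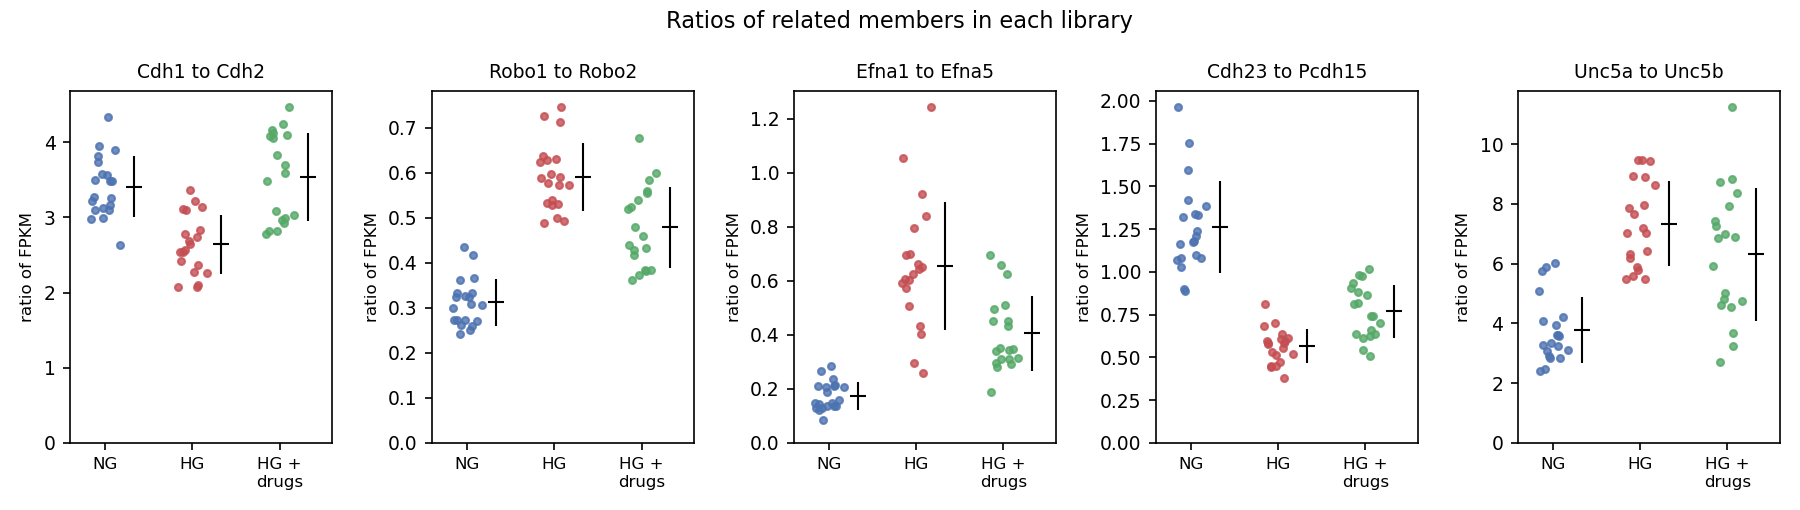
Ratio of the FPKM of related members in each library of NG, HG and HG + drugs, on axes from 0, with mean and SD as black bars. The Robo1 to Robo2 and Cdh23 to Pcdh15 ratios do not overlap between NG and HG, and in the Cdh1 to Cdh2 ratio HG is the lowest group. The members of each pair shown changed in opposite directions with HG, which shifts their ratio by construction.

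The other 73 transcripts were below the filter, 49 of them under 0.3 FPKM, and Cdh9 and both entries of Robo4 were listed at 0 in every library. Without the filter on low values, 28.9% of all transcripts were changed with HG, 5.44% with drugs and 18.8% between HG + drugs and NG. In that fit 16 of 70 low entries were called with HG, 3 higher and 13 lower. The 28.9% is over 15557 transcripts, most of them above the filter. The share among low transcripts alone was not computed, so the low entries have no like background here. Cdh11, a mesenchymal cadherin, was at 1.07 ± 0.218, 0.601 ± 0.114 and 0.879 ± 0.220 FPKM and was the only low entry also called with drugs (limma adjusted p = 7.6e-10 with HG and 5.7e-04 with drugs). Pcdh7 went from 0.873 ± 0.230 to 0.485 ± 0.176 FPKM with HG and was 0.444 ± 0.158 with drugs, and Cdh6 from 0.410 ± 0.163 to 0.124 ± 0.0888 and then 0.119 ± 0.0817. Both entries of Epha5 were lower and Efna4, Epha4 and Pcdh17 were higher with HG.

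Partner molecules were read from the same fit, in which 18.2% of all transcripts rose and 22.0% fell with HG, and 4.17% rose and 4.48% fell with drugs. Of the coreceptors and other cues, 21 genes were measured, and 8 of 22 transcripts rose (36.4%) and 5 fell (22.7%) with HG. The heparan sulfate carriers Sdc1 and Sdc3, which bind Slits, went from 50.4 ± 2.98 to 65.6 ± 3.50 FPKM (0.37, limma adjusted p = 3.1e-19) and from 28.4 ± 1.56 to 35.6 ± 2.08 FPKM (0.31, limma adjusted p = 1.2e-13), and both fell with drugs, by 0.09 and 0.16. Sdc4 moved the other way, from 15.1 ± 2.66 to 10.4 ± 1.41 FPKM with HG. Kdr, a VEGF receptor that pairs with neuropilins, had the widest difference with drugs of the partners named. It had 0.626 to 2.26 FPKM in NG (median 1.28), 1.04 to 3.88 in HG (median 2.58) and 0.566 to 2.30 in HG + drugs (median 1.06), with log2 fold changes of 0.59 with HG (SE 0.08, limma adjusted p = 3.9e-08) and -0.74 with drugs (SE 0.09, limma adjusted p = 1.3e-08). With drugs 4 transcripts of this list fell (18.2%) and none rose.

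Among intracellular effectors of guidance receptors, more transcripts rose than fell with HG. Of 56 transcripts of 54 measured genes, 22 rose (39.3%) and 8 fell (14.3%) with HG, and 1 rose (1.79%) and 7 fell (12.5%) with drugs. The median log2 fold change was 0.04 with HG and -0.03 with drugs, compared to -0.02 and 0.00 over all transcripts. Cdk5r1, the neuronal activator of Cdk5, went from 15.0 ± 3.35 to 27.3 ± 3.68 FPKM with HG (0.85, SE 0.09, limma adjusted p = 5.1e-12) and to 21.9 ± 5.07 with drugs (-0.33, SE 0.09, limma adjusted p = 0.011). Dpysl3, a collapsin response mediator downstream of semaphorins, showed the same order at 13.1 ± 2.13, 23.4 ± 3.94 and 19.5 ± 4.23 FPKM (0.79 and -0.26, limma adjusted p = 8.3e-13 and 0.025). Pak3 and Limk1, kinases that act on actin, rose with HG by 0.77 and 0.49 and were not called with drugs (limma adjusted p = 0.34 and 0.10).

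Partners at the membrane were split. Of 17 measured catenins and cadherin partners, 7 rose (41.2%) and 3 fell (17.6%) with HG. The neuronal catenin Ctnna2 went from 8.77 ± 0.864 to 12.4 ± 1.35 FPKM (0.46, limma adjusted p = 2.8e-11) and Ctnnd2 from 13.7 ± 1.49 to 10.0 ± 0.689 FPKM (-0.40, limma adjusted p = 6.9e-14), and each moved back with drugs, to 11.0 ± 1.79 and 11.3 ± 0.918. Beta-catenin (Ctnnb1) changed by 0.07 with HG and -0.09 with drugs. Among synaptic partners and scaffolds, 7 of 33 transcripts rose (21.2%) and 10 fell (30.3%), with Dlg2 going from 5.65 ± 1.07 to 3.25 ± 0.498 FPKM (-0.64, SE 0.06, limma adjusted p = 8.7e-13) and Magi3 from 9.20 ± 0.645 to 12.1 ± 0.696 (0.36, SE 0.03, limma adjusted p = 8.4e-15). The adhesion molecules Cadm1 and Clstn2 fell by 0.41 and 0.39. Of 16 transcripts for polysialic acid synthesis and anchors of Ncam and L1, 8 rose (50.0%) and 2 fell (12.5%). These included the polysialyltransferase St8sia2, from 3.21 ± 1.18 to 4.12 ± 0.972 FPKM (0.30, limma adjusted p = 0.0077), Ezr, from 28.1 ± 2.85 to 34.5 ± 3.05 FPKM (0.29), and Gap43, from 22.1 ± 4.25 to 28.9 ± 4.17 FPKM (0.38).

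**Figure D5:**
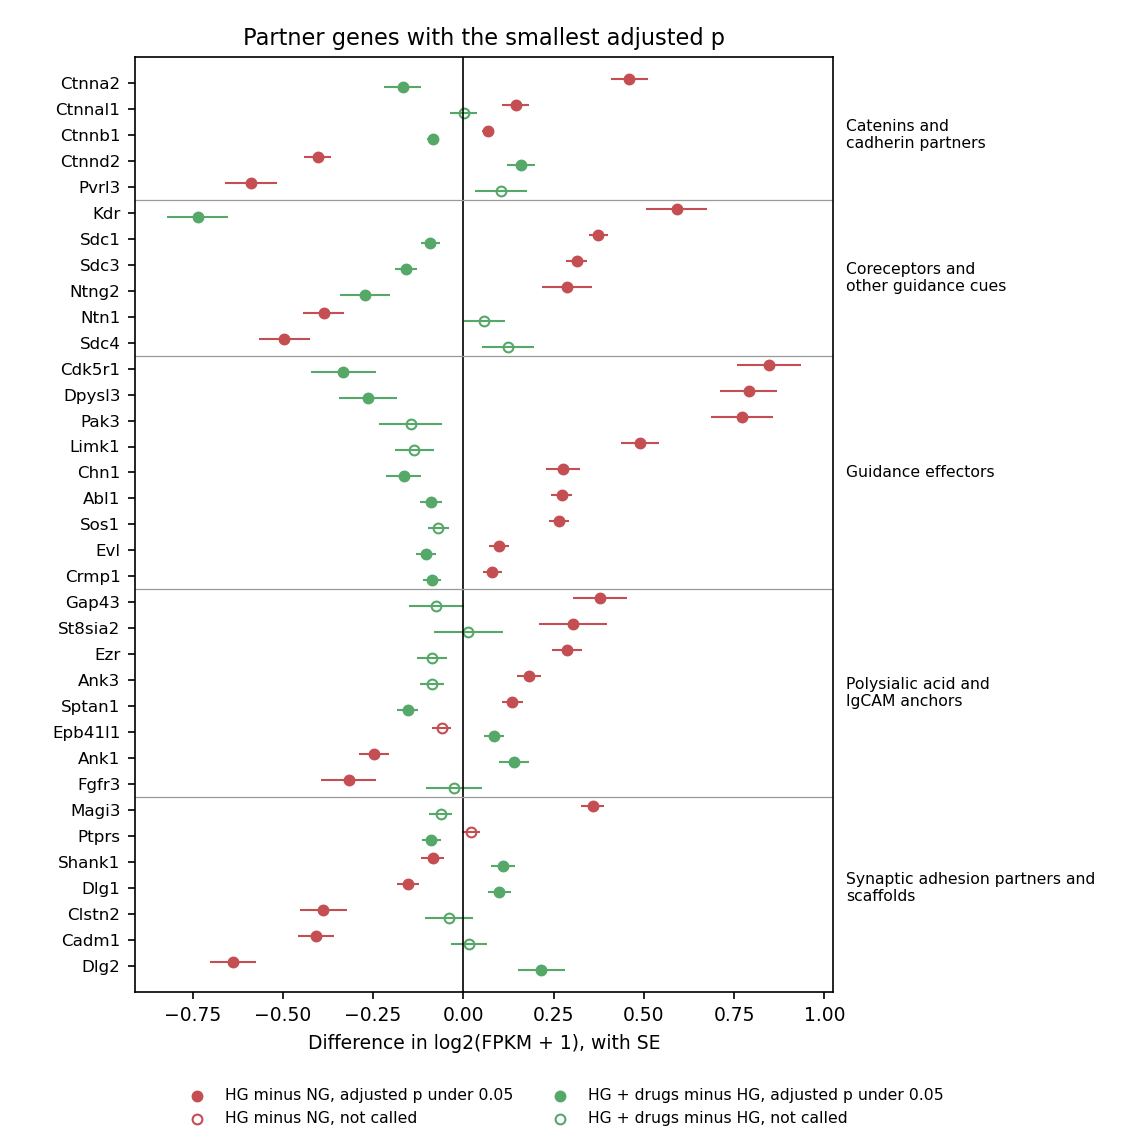
Difference in log2(FPKM + 1) with its SE for the partner genes with the smallest adjusted p in each list and comparison, HG minus NG in red and HG + drugs minus HG in green, filled where the adjusted p in limma was under 0.05. Kdr has the lowest value with drugs (-0.74), and Cdk5r1 the highest with HG (0.85).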

How the data were processed

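The authors made the libraries with a TruSeq RNA v2 kit, which does not mark strand. After sequencing they excluded a sample of insufficient quality, which left 59 libraries. Their notes name FastQC (1.0.0), TopHat, Bowtie and Cufflinks with rat build rn5, and the values they deposited are FPKM for RefSeq transcripts. Columns named LG were matched to NG through sample and replicate numbers, and 0 value columns stayed unmapped. For depth, an effective length of the transcript less 200 bases was used, and 88.0% of 83409 low values then were whole reads within 0.05.

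From the deposited FPKM, log2(FPKM + 1) was fitted in limma 3.58.1 (R 4.3.3, trend and robust options) for all 3 groups at once. The fit took 10660 transcripts averaging 1 FPKM or more, and p-values were adjusted by Benjamini-Hochberg in each comparison (threshold 0.05). Tables and plots were made in Python 3.11.15 with pandas 2.3.3, numpy 2.4.6 and matplotlib 3.10.9. The fit was tested on simulated data for HG against NG with 10660 transcripts, 50 of them changed at each size. It recovered 92% of changes of 0.25, 96% of 0.5 and 100% of 1 and of 2 on the log2 scale, and called 7 unchanged ones. The simulated noise was independent between libraries, and far fewer transcripts were changed than the 40.1% called with HG in the data. These shares therefore describe the simulated setting only.

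Full values were given for the 10 members with the largest changes in each comparison, those changed both with HG and with drugs, and the most abundant of each family over all libraries. Other members were named with fewer values. Of each partner list, up to 4 genes per comparison, those of smallest adjusted p, could be named, and direct ligands or receptors of named members. The members and lists were chosen with earlier results of these data known. Promoters of 300 bases came from RefSeq (GRCr8), a later build than that of the FPKM, and 98 of 144 symbols matched. Alternatives were a pseudocount of 0.1, no filter, a filter at 5 FPKM, scaling by median ratios, quantile normalization, replicate number as a block, sets of 15 sample numbers as a term, complete replicate numbers, FPKM per symbol and leaving out number 13. Leaving out number 13 followed from these data, in which its libraries went against the fit. Removing a length trend was also added after the data were seen.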

Additional observations from a re-analysis of the deposited data

How the results depend on the processing

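The numbers of changed members stayed within 1.5 times the reported values except in the following cases. With a minimum of 5 FPKM, which left 36 members, 23 were changed with HG, 9 with drugs and 12 between HG + drugs and NG. These counts are lower because fewer members were tested. No member still tested lost its call at this filter. With the replicate block, 26 members were changed with drugs (19.7% of all transcripts), and the gains by limma included Efna1 (-0.26, adjusted p = 0.034), Efnb1 (-0.26, adjusted p = 2.5e-04), Unc5a (-0.10, adjusted p = 0.039), Nlgn2 (0.06, adjusted p = 0.048) and, among the protocadherins, Pcdhb10. Same-numbered libraries correlated with r above 0.1 in 38 of 58 pairs (mean 0.139, lowest -0.0907, compared to a mean of 0.0287 between different numbers), and 27 of 59 libraries were closest to their own number. Same-numbered libraries were thus more alike on average, and the paper draws single experiments as lines across the treatments for secretion and apoptosis. The labels do not say that a number marks a shared experiment and not every pair exceeded 0.1, so the replicate block stayed an alternative. If numbers do mark experiments, the main fit ignored that pairing. Some differences it left uncalled then pass. With drugs, the gains under the block also included Cdh22, Cntnap1, Epha1, Sema4f and Sema4g. Between HG + drugs and NG, 39 members were changed with the block and 27 in the main fit, with Robo1, Plxna3, Nrcam and Efnb1 among the gains. Of 900 values of the 28 named members under 11 alternatives, 880 kept their direction and side of the threshold, 19 came to pass it, 1 no longer passed it (Sema3f with drugs under quantile normalization, 0.15) and 0 were reversed. At the median depth, the mean of Efna1 in NG was about 15.7 reads.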
